A study of Mus musculus with 5 samples.

Results

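The genes described here encode the protein core of the spliceosome and the main families of RNA-binding proteins that steer it. They were chosen as the protein-coding genes whose symbol starts with Snrp, Srsf, Hnrnp, Sf3a or Sf3b, which gave 52 of the 55364 gene rows of each table. There were 12 Snrp, 11 Srsf, 20 Hnrnp, 3 Sf3a and 6 Sf3b genes. They were measured in invariant natural killer T (iNKT) cells, T lymphocytes that recognise lipids on CD1d, which had been sorted from mouse liver by binding of a PBS57-loaded CD1d tetramer and of an antibody to the beta chain of the T cell receptor. The HCC group consisted of 3 libraries from male wild-type C57BL/6 mice that had been injected with diethylnitrosamine (DEN, 25 mg/kg), a liver carcinogen, at 15 days of age and carried hepatocellular carcinoma. The healthy group consisted of 2 libraries from wild-type mice given PBS. Livers were taken at 38 to 42 weeks of age, and the series' design counts 1 mouse per library. The labels give the same treatment text for both groups, so the age and sex of the healthy mice rest on that shared text.

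Introns are removed by the spliceosome, which is built on small nuclear ribonucleoproteins (snRNPs). Each of the U1, U2, U4 and U5 snRNPs holds an RNA threaded through a ring of Sm proteins, and the SF3A and SF3B complexes belong to the U2 snRNP, which binds the branch point. SR proteins, encoded by the Srsf genes, bind mostly to exons and favour their inclusion, while hnRNP proteins coat the nascent transcript and often favour skipping. In T cells these factors are known for the alternative splicing of Ptprc (CD45), whose variable exons are skipped after activation under the influence of hnRNP L and its paralogue hnRNP LL.

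The libraries were made by 3′ mRNA sequencing, in which each read stems from the end of a transcript, so that a count does not grow with gene length. Total counts ran from 1718452 to 1883979 in the HCC libraries and were 2224356 and 1821863 in healthy 1 and healthy 2. Levels are given as CPM, the usual depth-scaled count, taken from the library's own total, and a count of 0 allows up to 3 counts, or 1.35 to 1.75 CPM, for counting error only, since reads and not distinct molecules were counted. Healthy 1 stood apart. Its Pearson r with the other libraries, across genes of log2 levels, was 0.766 to 0.818, against 0.853 to 0.905 among the other libraries, and it held counts for the fewest genes (10861, against 11822 to 13229). The tables of HCC 2 and HCC 3 carry the same number in their names, and these libraries had an r of 0.853. All 11 markers of T and iNKT cells had counts, and they summed to 5861, 5187 and 5936 CPM in HCC 1, 2 and 3, against 4572 and 5637 CPM in healthy 1 and 2. Zbtb16, which encodes the iNKT factor PLZF, was at 0 to 1.16 CPM in HCC libraries and at 1.35 and 1.65 CPM in healthy 1 and 2, at or below the limit of 3 counts in each library. Klrb1c, which encodes the NK1.1 receptor carried by many iNKT cells, was at 465, 21.0 and 333 CPM in HCC 1, 2 and 3, against 382 and 5.49 CPM in healthy 1 and 2, so that HCC 2 and healthy 2 were far lower than the rest. The part of this difference in the results below was not tested. All 17 hepatocyte markers had a count in some library and summed to 92.5, 294 and 719 CPM in HCC 1, 2 and 3, against 62.9 and 63.7 CPM in healthy 1 and 2. The 8 erythroid markers found summed to 7391, 17083 and 15384 CPM in the HCC libraries, against 2975 and 2787 CPM in the healthy ones, with Slc4a1 and Epb42 at 0 throughout. The 6 B cell markers summed to 103, 124 and 85.5 CPM, against 36.0 and 80.1 CPM, and 10 macrophage markers to 21.8, 0 and 5.84 CPM, against 43.2 and 1.10 CPM, with Timd4 and Vsig4 at 0 throughout. The part of these cell types in the results below was not tested. In sorted bulk samples, fewer cells of a type and less RNA per cell cannot be told apart.

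To show the DNA from which the described transcripts start, the promoters of 5 members are printed, from 250 bases before to 50 bases after the transcription start given by RefSeq (GRCm38.p6). Snrpd2, Srsf3 and Hnrnpab had the smallest p values of the Snrp, Srsf and Hnrnp families. Snrpd3 encodes another protein of the Sm ring and lay on the opposite side to Snrpd2. Sf3a2 had the smallest p among members whose promoter holds the core word of ETS factors. Capitals mark matches on either strand to any of 5 motifs. The GC box, bound by SP1, was searched as GGGCGG. The core word of ETS factors was searched as CCGGAAG. The box bound by NF-Y was searched as CCAAT, and the TATA box as TATAAA. The NRF1 motif was searched too. In Snrpd3 a GC box and a CCAAT match overlap. They lie at chr7:19149588-19149887 (Snrpd2), chr10:75517792-75518091 (Snrpd3), chr17:29032410-29032709 (Srsf3) and chr10:80798485-80798784 (Sf3a2) on the plus strand and at chr11:51606832-51607131 (Hnrnpab) on the minus strand.
Snrpd2: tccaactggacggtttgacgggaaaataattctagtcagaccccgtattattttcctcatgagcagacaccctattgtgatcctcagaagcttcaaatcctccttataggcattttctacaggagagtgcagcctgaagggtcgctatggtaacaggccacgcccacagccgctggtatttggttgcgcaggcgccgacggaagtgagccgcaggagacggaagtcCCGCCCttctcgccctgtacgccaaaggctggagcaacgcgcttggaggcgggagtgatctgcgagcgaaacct
Snrpd3: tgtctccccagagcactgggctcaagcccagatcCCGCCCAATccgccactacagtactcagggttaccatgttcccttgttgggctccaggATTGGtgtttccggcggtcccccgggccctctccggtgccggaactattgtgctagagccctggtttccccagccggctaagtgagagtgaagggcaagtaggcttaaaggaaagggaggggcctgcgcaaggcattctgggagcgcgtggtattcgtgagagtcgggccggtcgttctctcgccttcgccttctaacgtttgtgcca
Srsf3: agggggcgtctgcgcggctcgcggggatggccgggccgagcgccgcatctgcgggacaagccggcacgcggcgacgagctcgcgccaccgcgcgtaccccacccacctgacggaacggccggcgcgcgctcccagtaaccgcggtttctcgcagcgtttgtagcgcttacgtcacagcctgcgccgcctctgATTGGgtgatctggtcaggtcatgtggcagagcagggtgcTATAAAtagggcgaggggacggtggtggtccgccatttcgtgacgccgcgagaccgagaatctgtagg
Hnrnpab: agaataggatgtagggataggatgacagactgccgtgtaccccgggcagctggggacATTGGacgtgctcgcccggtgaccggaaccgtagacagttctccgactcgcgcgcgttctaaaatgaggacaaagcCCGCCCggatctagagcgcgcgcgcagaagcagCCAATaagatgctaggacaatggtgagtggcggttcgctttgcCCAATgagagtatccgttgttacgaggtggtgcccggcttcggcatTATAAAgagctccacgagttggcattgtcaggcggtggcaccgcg
Sf3a2: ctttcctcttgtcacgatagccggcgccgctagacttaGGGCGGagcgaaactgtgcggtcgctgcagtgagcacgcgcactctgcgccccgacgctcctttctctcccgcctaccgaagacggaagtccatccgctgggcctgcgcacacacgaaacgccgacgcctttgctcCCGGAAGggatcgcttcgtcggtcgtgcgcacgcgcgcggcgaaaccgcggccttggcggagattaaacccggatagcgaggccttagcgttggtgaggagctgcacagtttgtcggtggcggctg
Of the 52 members, 46 matched a promoter by symbol. The ETS core was present in 16 of the 46 (34.8%), against 8.86% of all 32851 promoters and 11.9% of 17492 promoters of protein-coding genes. The GC box was present in 32 of 46 (69.6%), against 35.7% and 46.3%. CCAAT was found in 22 member promoters (47.8%, against 37.4% and 39.0%) and TATAAA in 6 (13.0%, against 13.6% and 13.3%), while the NRF1 motif was in 0 of 46 (against 0.971% and 1.32%). These are matches of letters within 300 bases and say nothing of binding.

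The comparison of HCC with healthy libraries asks whether iNKT cells of tumour-bearing liver express the splicing machinery at another level. No member differed at the threshold. All members summed to 4385, 4770 and 4189 CPM in HCC 1, 2 and 3, against 2887 and 4524 CPM in healthy 1 and 2. By library totals the 3 HCC libraries and healthy 2 thus held nearly the same amount, and healthy 1 alone held less, at 0.638 times the level of healthy 2. Healthy 1 also differed in composition. Protein-coding genes held 53.5% of its counts, against 56.7% to 60.7% elsewhere, and pseudogenes 38.5%, against 31.7% to 36.5%. Its factor for scaling by trimmed mean of M values was 0.83, against 1.04 in healthy 2. The part of this composition in its lower sum was not tested. The ratio of group means was 1.20, and 0.983 for HCC against healthy 2 alone.

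**Figure D1:**
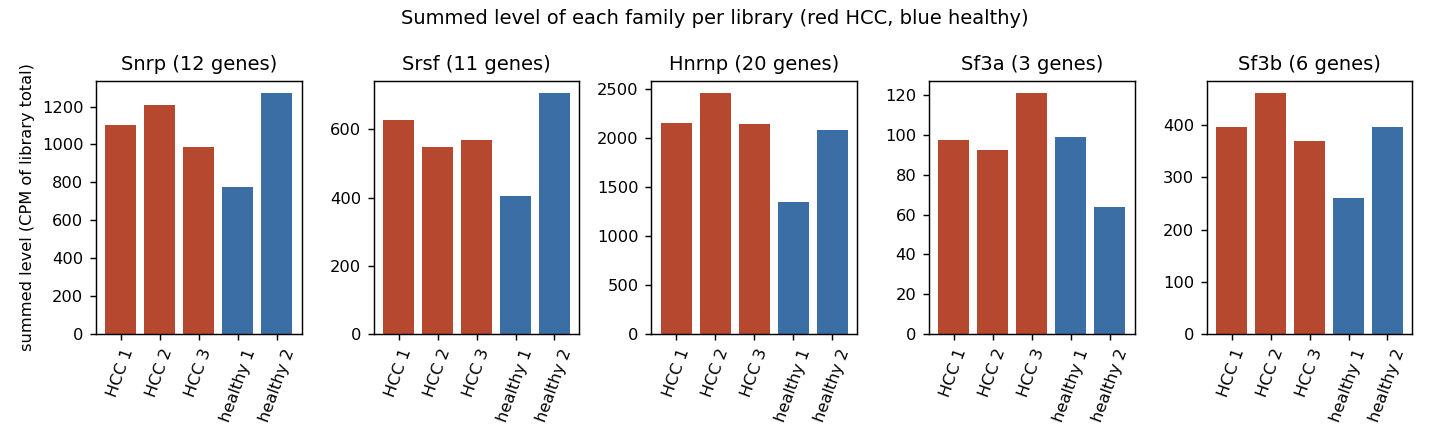
Summed level of each family in CPM of the library total (vertical axis from 0, a separate scale in each panel) for the 3 HCC libraries (red) and the 2 healthy libraries (blue). Healthy 1 is the lowest bar in every family except Sf3a, where healthy 2 is lowest at 63.7 CPM.

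Of the 52 members, 50 passed the filter on low counts and were tested with edgeR's quasi-likelihood test over 8468 genes. The other two, Snrpn and Srsf12, had a count of 0 in all 5 libraries. At an adjusted p under 0.05 (Benjamini-Hochberg), edgeR called 0 of the 50 members, beside 0% of all tested genes, and every member had an adjusted p of 0.9999. The less strict criterion of an unadjusted p under 0.05 in edgeR, was met by 1 member, Snrpd2, beside 3.63% of all tested genes (307). Snrpd2 was lower in HCC, as were 1.48% of all tested genes at that threshold. Without healthy 2, edgeR called 2.01% of 9755 genes and again 0 members. DESeq2 called 0 members and 0.0945% of all genes (8), and limma-voom called 0 members and 0 genes. At an unadjusted p under 0.05 both again gave Snrpd2 alone among the members, with 356 and 208 genes in all. Snrpd2 missed that threshold in edgeR with library totals alone (unadjusted p = 0.051), with the replicate block (0.086), with HCC 2 and 3 summed (0.059), without healthy 1 (0.128) and without any 1 of the HCC libraries (0.056 to 0.076). The fitted values were higher in HCC for 33 members and lower for 17, the median log2 fold change being 0.18, against 0.0046 over all tested genes and 50.3% of them above 0. Without healthy 1 the split was 27 higher and 23 lower, with medians of 0.15 and 0.059. The median SE of a member's log2 fold change was 0.43, so that changes of the size seen in most members were not detectable with these libraries. Fold changes are relative to scaling by trimmed mean of M values (TMM). With library totals alone the median of all tested genes shifted to 0.16 and that of the members to 0.32.

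**Figure D2:**
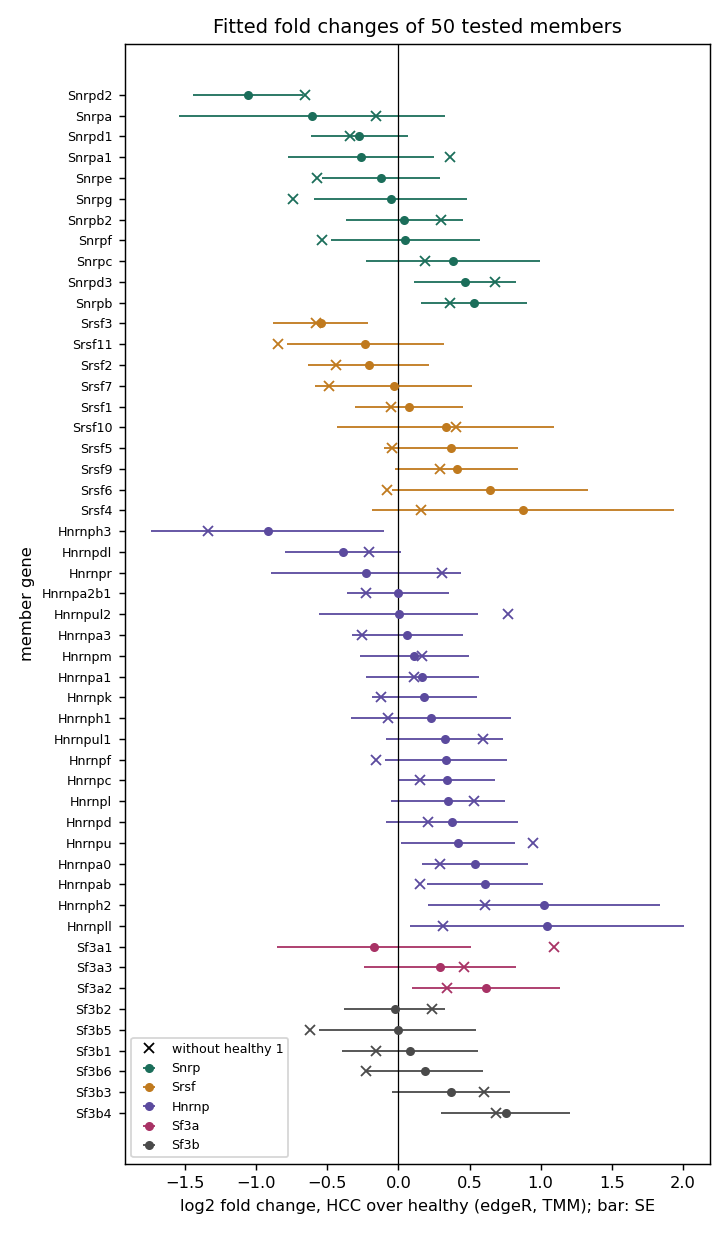
Log2 fold change of HCC over healthy for the 50 tested members (edgeR, TMM scaling), with bars of 1 SE and colours by family. Crosses give the value without healthy 1. Snrpd2 lies lowest at -1.06, and 33 of the 50 circles lie to the right of 0.

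Counted by library, 10 of the 50 tested members (20.0%) had all their HCC values above both healthy values, beside 12.8% of all tested genes. They lay below both for 2 members (4.00%), beside 5.46% of all. The 10 were Snrpb, Snrpd3, Sf3b3, Sf3b4, Hnrnpa0, Hnrnpab, Hnrnpc, Hnrnpl, Hnrnpu and Hnrnpul1, and the 2 were Snrpd2 and Srsf3. These counts rest on library totals. With TMM-scaled CPM 8 members (16%) lay above, beside 10.6% of all, and 3 (6%) below, beside 8.44%. The groups of Sf3b3, Hnrnpu and Hnrnpul1 then overlapped. Scaling by DESeq2 gave 9 members (18%) above, beside 10.9%, and 3 (6%) below, beside 8.23%. Healthy 1 was the lowest of the 5 libraries for 30 of the 50 members (60.0%), beside 42.1% of all tested genes, and the highest for 3 (6.00%), beside 18.8%. The members for which it was highest were Snrpa, Snrpa1 and Snrpd2. Against 1 healthy library more genes separate in any case. Without healthy 2, 35 members (70%) lay above and 4 (8.00%) below, beside 45.7% and 20.9% of all tested genes. Without healthy 1, 13 (26.0%) lay above and 13 (26.0%) below, beside 24.2% and 23.3%.

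**Figure D3:**
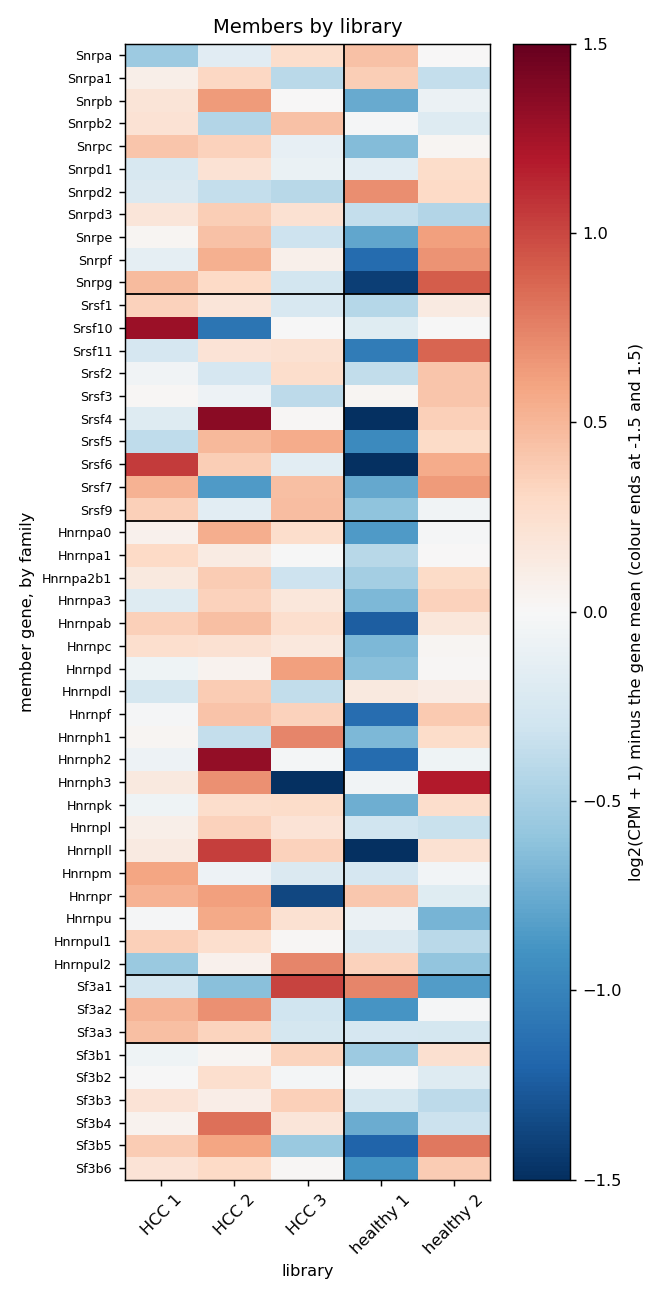
Level of the 50 tested members in each library as log2(CPM + 1) minus the gene's mean over the 5 libraries, with HCC libraries left of healthy ones and families separated by lines. The healthy 1 column is blue for most Srsf, Hnrnp and Sf3b genes, and Snrpd2 shows the opposite order, with its highest level there.

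The Snrp genes fall by role into the Sm ring (Snrpb, Snrpd1, Snrpd2, Snrpd3, Snrpe, Snrpf, Snrpg), the U1 proteins Snrpa and Snrpc and the U2 proteins Snrpa1 and Snrpb2. They summed to 1101, 1207 and 989 CPM in HCC 1, 2 and 3, against 775 and 1271 CPM in healthy 1 and 2, so the HCC libraries lay between the healthy ones. The ratio of means was 1.07 and became 0.865 against healthy 2 alone. Of the 11 tested genes 5 were fitted higher and 6 lower (median log2 fold change -0.054).

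Snrpd2, which pairs with SmD1 in the ring (ENSMUSG00000040824, chromosome 7, 19149722 to 19153542, mm10), was at 59.9, 54.1 and 52.0 CPM in HCC 1, 2 and 3, against 113 and 85.6 CPM in healthy 1 and 2. The groups did not overlap, and the 3 HCC libraries lay close together. The means were 55.3 ± 4.06 CPM in HCC (SD, n = 3) and 99.5 ± 19.6 CPM in healthy libraries (SD, n = 2). The log2 fold change was -1.06 (SE 0.39). In edgeR's quasi-likelihood test this gave an unadjusted p of 0.022 and an adjusted p of 0.9999. Over the alternatives the adjusted p ran from 0.0828 without healthy 2 to 1, and without healthy 1 the log2 fold change was -0.66.

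Snrpd3, whose product SmD3 pairs with SmB (ENSMUSG00000020180, chromosome 10, 75517551 to 75537381), was at 119, 135 and 123 CPM in HCC libraries, against 81.4 and 76.8 CPM in healthy 1 and 2. The groups again did not overlap, in the opposite direction to Snrpd2 (log2 fold change 0.47, SE 0.36, unadjusted p = 0.222 and adjusted p = 0.9999 in edgeR). Within a library the ratio of Snrpd2 to Snrpd3 counts, which no scaling can move, was 0.505, 0.401 and 0.424 in HCC 1, 2 and 3, against 1.39 and 1.11 in healthy 1 and 2. This ratio was chosen after both genes' values were seen and is given without a test. Snrpd2 made up 6.84%, 5.20% and 6.99% of the counts of the 7 ring genes in the HCC libraries, against 19.7% and 7.80% in healthy 1 and 2, so that by this share healthy 2 lay near the HCC libraries.

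Snrpb, which encodes the ring protein SmB, was at 116, 159 and 102 CPM in HCC libraries, against 59.8 and 94.96 CPM in healthy ones (log2 fold change 0.53, SE 0.37). HCC 3 and healthy 2 nearly met. The ring genes at the highest levels, Snrpe and Snrpg, separated the healthy libraries from each other and not the groups. Snrpe was at 202, 270 and 160 CPM in HCC libraries, against 115 and 305 CPM in healthy 1 and 2. Snrpg was at 218, 193 and 129.5 CPM, against 58.4 and 294 CPM. The HCC libraries lay between the healthy ones for both, with log2 fold changes of -0.12 (SE 0.42) and -0.054 (SE 0.54), which change sign under several settings. For Snrpf the HCC libraries also lay between the healthy ones, at 37.6 to 59.9 CPM, against 18.0 and 66.4 CPM in healthy 1 and 2. Snrpd1 was at 123 to 169 CPM in HCC libraries, against 130 and 176 CPM.

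**Figure D4:**
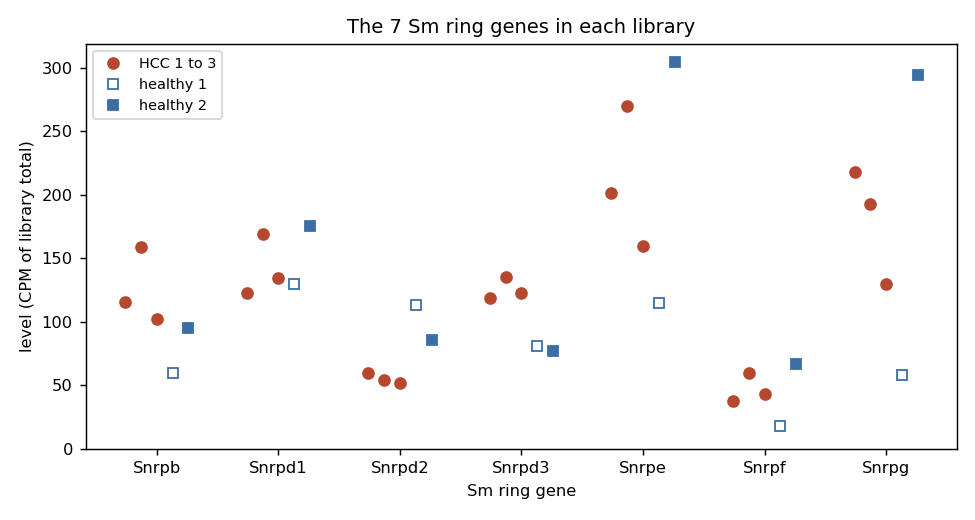
Level in CPM of the library total of the 7 genes of the Sm ring, with HCC libraries as red circles, healthy 1 as open and healthy 2 as filled blue squares. Snrpd2 lies lower and Snrpd3 higher in all 3 HCC libraries than in both healthy libraries, while for Snrpe, Snrpf and Snrpg the healthy libraries lie at the ends.

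Among the U1 and U2 proteins, Snrpb2, the U2 protein B″, was at 111 to 205 CPM in HCC libraries, against 149 and 132 CPM in healthy 1 and 2. Its partner Snrpa1 was at 19.1 to 32.0 CPM, against 33.3 and 19.8 CPM. Snrpc, a U1 protein, was at 12.7 to 19.1 CPM, against 8.54 and 14.3 CPM. Snrpa, which binds a stem loop of U1 RNA, was at 3.81 to 7.43 CPM, against 8.54 and 6.04 CPM. The groups overlapped for all of these. Snrpn, an imprinted paralogue of Snrpb known mainly from brain, was not detected, with an upper limit of 1.35 to 1.75 CPM.

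SR protein genes summed to 628, 547 and 568.5 CPM in HCC 1, 2 and 3, against 405 and 706 CPM in healthy 1 and 2, again with the HCC libraries between the healthy ones. Of 10 tested genes 6 were fitted higher and 4 lower (median log2 fold change 0.20), and without healthy 1 the split was 3 and 7 (median -0.066). Srsf3, the smallest SR protein and a factor of mRNA export as well (ENSMUSG00000071172, chromosome 17, 29032628 to 29043373), was at 182, 170.5 and 137 CPM in HCC libraries, against 184 and 239 CPM in healthy 1 and 2. It was the only SR gene whose groups did not overlap, and HCC 1 lay just under healthy 1 (log2 fold change -0.55, SE 0.34, unadjusted p = 0.136 and adjusted p = 0.9999 in edgeR).

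Srsf1, the founding member of the family, was at 97.4, 86.7 and 64.2 CPM in HCC libraries, against 56.2 and 84.0 CPM in healthy ones (log2 fold change 0.077, SE 0.38). Srsf6 was at 49.0, 30.3 and 20.7 CPM, against 5.84 and 34.6 CPM, and the log2 fold change, 0.64 (SE 0.69), became -0.080 once healthy 1 was left out. Srsf9 was at 63.7, 44.2 and 69.0 CPM, against 32.4 and 47.8 CPM (0.41, SE 0.43). All of these overlapped, and healthy 1 was the lowest library each time. Srsf2, Srsf5, Srsf7 and Srsf11 ranged from 25.6 to 94.5 CPM in HCC libraries and from 14.4 to 80.1 CPM in healthy ones. Srsf10, which represses splicing when dephosphorylated after heat shock, was at 37.6, 6.40 and 14.9 CPM, against 13.0 and 14.8 CPM, so that HCC libraries held both its extremes. Srsf4 was at 4.90 to 16.3 CPM, against 1.35 and 7.68 CPM.

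The hnRNP genes were the family with the largest total. They summed to 2161, 2462 and 2142 CPM in HCC 1, 2 and 3, against 1347 and 2086 CPM in healthy 1 and 2. All HCC libraries lay above both healthy ones, but HCC 3 exceeded healthy 2 by little. The means were 2255 ± 179.5 CPM in HCC (SD, n = 3) and 1717 ± 522.5 CPM in healthy libraries (SD, n = 2). The ratio of means was 1.31, and 1.08 against healthy 2 alone. Of 20 tested genes 16 were fitted higher and 4 lower (median log2 fold change 0.28), and 13 and 7 without healthy 1 (median 0.16).

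Hnrnpc, whose product forms the tetramer that measures out nascent transcripts (ENSMUSG00000060373, chromosome 14, 52073377 to 52104028), was at 349, 342 and 327 CPM in HCC libraries, against 184 and 299 CPM in healthy 1 and 2. Hnrnpab was at 203.5, 219 and 190 CPM, against 67.0 and 180 CPM, and Hnrnpa0 at 115, 162 and 133 CPM, against 60.7 and 109 CPM. In these 3 genes the groups did not overlap, yet healthy 2 lay nearer to the HCC mean than to healthy 1. Their log2 fold changes were 0.34 (SE 0.34), 0.61 (SE 0.41) and 0.54 (SE 0.37), and without healthy 1 they were 0.16, 0.15 and 0.29. None passed in edgeR, with unadjusted p values of 0.342, 0.169 and 0.180.

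For Hnrnpl, Hnrnpul1 and Hnrnpu the healthy libraries lay together or in the reverse order. Hnrnpl, a regulator of CD45 exon skipping (ENSMUSG00000015165, chromosome 7, 28808541 to 28822266), was at 53.3, 64.0 and 57.9 CPM in HCC libraries, against 40.5 and 39.5 CPM in healthy ones (log2 fold change 0.35, SE 0.40, and 0.53 without healthy 1). Hnrnpul1 was at 62.6, 58.2 and 49.4 CPM, against 41.8 and 36.8 CPM (0.33, SE 0.41). Hnrnpu, which encodes the nuclear matrix protein SAF-A, was at 141, 211 and 167 CPM, against 133.5 and 87.3 CPM. Here healthy 2 was the lowest library, and the log2 fold change of 0.42 (SE 0.40) was 0.95 without healthy 1. Hnrnpu was then the single member at an unadjusted p under 0.05 in edgeR, beside 3.84% of 9590 genes, while without healthy 2 there were 6 such members, Hnrnpu not among them, beside 21% of 9755 genes.

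Hnrnpk, a poly(C)-binding protein among the highest members, was at 255, 319.5 and 322 CPM in HCC libraries, against 160 and 319 CPM in healthy 1 and 2, where healthy 1 alone was low. Hnrnpa2b1 was at 198 to 321 CPM in HCC libraries, against 172 and 300 CPM, and Hnrnpf at 123.5 to 169 CPM, against 56.2 and 165 CPM. Healthy 1 was the lowest library for both. Hnrnpll, the lymphocyte regulator of CD45 splicing, was at 7.62, 15.1 and 9.02 CPM, against 1.35 and 8.23 CPM, with 1.35 CPM being at the limit of 3 counts. Hnrnph2 was at 8.71, 24.4 and 9.02 CPM, against 3.60 and 8.78 CPM, so HCC 2 held most of its difference (log2 fold change 1.02, SE 0.82). Hnrnph3 was at 12.5, 18.6 and 2.12 CPM, against 10.8 and 26.9 CPM, and Hnrnpdl at 46.2, 72.7 and 43.0 CPM, against 62.0 and 60.4 CPM. Both had negative log2 fold changes, of -0.92 (SE 0.82) and -0.39 (SE 0.41), with overlapping groups. The remaining hnRNP genes ran from 6.90 CPM (Hnrnpr) to 249 CPM (Hnrnpm) in HCC libraries and from 14.4 CPM (Hnrnph1) to 160 CPM (Hnrnpm) in healthy ones.

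SF3A genes summed to 97.4, 92.5 and 121 CPM in HCC libraries, against 98.9 and 63.7 CPM in healthy 1 and 2. This was the only family in which healthy 1 exceeded healthy 2, and a single gene carried it. Sf3a1, which bridges U2 to U1 during early assembly, was at 33.7, 26.2 and 84.4 CPM in HCC libraries, against 69.2 and 22.5 CPM. HCC 3 and healthy 1 were high and the other libraries low, and the log2 fold change, -0.17 (SE 0.68), became 1.09 once healthy 1 was left out. Sf3a2 was at 35.9, 40.7 and 20.2 CPM, against 13.0 and 24.7 CPM (0.62, SE 0.52), and Sf3a3 at 27.8, 25.6 and 16.5 CPM, against 16.6 and 16.5 CPM (0.29, SE 0.53). The groups overlapped for both.

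SF3B genes summed to 397, 461.5 and 369 CPM in HCC libraries, against 260 and 397 CPM in healthy 1 and 2, where the groups overlapped. Sf3b4 (ENSMUSG00000068856, chromosome 3, 96172332 to 96177564) was at 35.9, 61.7 and 39.3 CPM in HCC libraries, against 20.2 and 27.4 CPM in healthy ones. Sf3b3 was at 58.2, 54.1 and 65.3 CPM, against 41.8 and 38.4 CPM. By library totals the groups overlapped in neither gene, while with TMM-scaled CPM those of Sf3b3 overlapped. Without healthy 1 the log2 fold changes were 0.69 and 0.60, against 0.76 (SE 0.45) and 0.37 (SE 0.41) with all libraries. The unadjusted p values in edgeR were 0.129 and 0.391. Sf3b2, the SF3B gene with the highest level, was at 116.5, 140 and 115 CPM, against 116 and 103 CPM (log2 fold change -0.025, SE 0.36). Sf3b6, a branch point protein, was at 88.2, 94.3 and 77.5 CPM, against 40.5 and 99.4 CPM, and Sf3b5 at 37.7 to 84.4 CPM, against 23.8 and 97.2 CPM. Sf3b1, the branch point component that is recurrently mutated in myeloid neoplasms, was at 25.6, 27.4 and 34.0 CPM, against 18.0 and 31.8 CPM.

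Some member rows share sequence with other rows, often processed pseudogenes, and the counting program was not given. Stretches of 31 bases from the final 300 bases of each member transcript were therefore looked up in every other annotated gene. Snrpd2 shared 1.85% of its words and Snrpd3, Sf3b3 and Sf3b4 shared none. Hnrnpa3 shared 44.7%, and 14 rows that each hold at least 20% of its words had 234, 299 and 251 CPM in HCC libraries, against 74.2 and 202 CPM in healthy 1 and 2. This exceeded the row of Hnrnpa3 itself, at 87.1, 126 and 112.5 CPM, against 62.0 and 127 CPM. For Snrpg, a processed pseudogene on chromosome 17 (Gm8186, sharing 25.0%) held 397, 248.5 and 252 CPM in HCC libraries, against 199 and 379 CPM. For Srsf3, the row Gm12355 on chromosome 11 (22.6%) held 61.0, 57.6 and 35.6 CPM, against 110 and 60.4 CPM. Srsf2 shared 89.1% with the overlapping Mettl23, Hnrnpf 69.8% with 10 genes, Hnrnpab 40.5% with Phykpl, and Snrpf 100% with 1 gene whose row held no counts. Levels of these members are uncertain by an unknown amount, since the counting of reads that match several rows is not given. Such reads may be counted in those rows or in none. Snrpert, a retrocopy of Snrpe on chromosome 2 that the choice by gene type left out, held 64.8, 75.1 and 48.3 CPM in HCC libraries, against 25.2 and 73.0 CPM, in the same order of libraries as Snrpe except that healthy 2 did not lead.

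**Figure D5:**
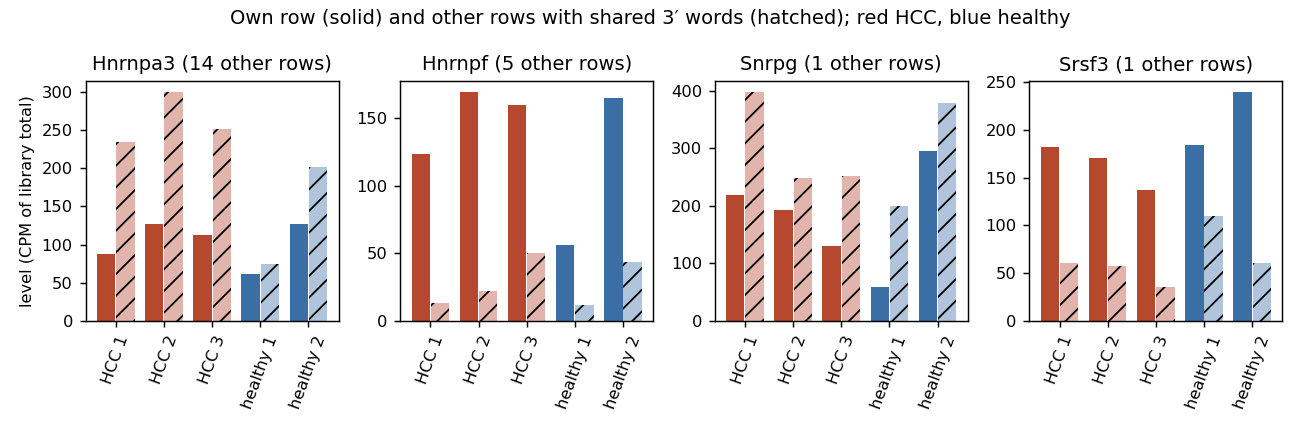
Level in CPM of the library total of the row of Hnrnpa3, Hnrnpf, Snrpg and Srsf3 (solid bars) and of the other rows that share at least 20% of its 3′ words (hatched bars), with HCC libraries in red and healthy ones in blue. The other rows exceed the own row in every library for Hnrnpa3 and Snrpg.

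Beyond the members, 155 splicing genes in 8 lists were examined, of which 134 were tested. In edgeR 0 of them passed at an adjusted p under 0.05, beside 0% of all tested genes, and 6 had an unadjusted p under 0.05 (3.63% of all tested genes did). They were fitted higher for 82 genes and lower for 52 (median log2 fold change 0.12). The HCC libraries all exceeded both healthy ones for 29 genes (12.8% of all tested genes did) and below for 4 (5.46% did). The list of SR-related proteins and SR kinases had the highest median, 0.48 over 22 tested genes, with 17 fitted higher and 5 lower, and 7 above both healthy libraries. It summed to 539, 659 and 527 CPM in HCC libraries, against 259 and 424 CPM in healthy 1 and 2, so the groups did not overlap. Healthy 1 was the lowest library by this sum, and the median of the list without it is not given here. Srrm1, a coactivator that bridges SR proteins, was at 77.3, 91.9 and 90.2 CPM in HCC libraries, against 25.2 and 43.9 CPM (log2 fold change 1.18, SE 0.40, unadjusted p = 0.016 and adjusted p = 0.9999 in edgeR). The value without healthy 1 was 0.95.

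Sfpq, a paraspeckle protein of the list of other regulators, was at 121, 132 and 103 CPM in HCC libraries, against 46.8 and 68.1 CPM (log2 fold change 0.88, SE 0.37). Aqr, a helicase of the catalytic spliceosome, was at 16.3, 19.8 and 9.55 CPM, against 1.35 and 1.10 CPM. The healthy values stand for 3 and 2 counts, and the ratio of summed levels was 12.2, with an exact (Clopper-Pearson) interval of 5.02 to 38.6 at 95% confidence that covers counting error only. Eftud2, the GTPase of the U5 snRNP, was at 22.3, 54.7 and 36.1 CPM, against 4.95 and 18.7 CPM (1.56, SE 0.64). None of these 3 passed in edgeR (unadjusted p of 0.037, 0.0052 and 0.036, adjusted p of 0.9999 each). Among 3′ splice site factors, with a median of 0.26 over 12 tested genes, U2af2 was at 245, 323.5 and 220 CPM, against 104 and 197 CPM.

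The lists of the exon junction complex (median log2 fold change -0.29, 7 tested), LSm proteins (-0.21, 9 tested) and snRNP assembly factors (-0.092, 12 tested) had negative medians. Lsm2 was at 14.7, 12.8 and 13.3 CPM in HCC libraries, against 46.8 and 14.8 CPM in healthy 1 and 2. Prmt5, the methyltransferase that modifies Sm proteins, was at 21.2, 21.5 and 20.7 CPM, against 69.2 and 14.3 CPM. In both genes healthy 1 alone was high, and without it the log2 fold changes were -0.15 and 0.54, against -1.44 (SE 0.63) and -1.27 (SE 0.66) with all libraries. The tri-snRNP list (median 0.29, 23 tested), the catalytic core (0.11, 21 tested) and the other regulators (0.11, 28 tested) had positive medians.

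For other genes singled out in these lists, by the smallest p or the highest mean level, the groups overlapped. Zmat2, a tri-snRNP protein, was at 230, 219 and 158 CPM in HCC libraries, against 167 and 217 CPM in healthy 1 and 2, and Lsm6 at 268, 161 and 213 CPM, against 199 and 261 CPM. Syf2 was at 76.2, 120.5 and 107 CPM, against 81.4 and 82.3 CPM. Rbm8a, a core protein of the exon junction complex, was at 99.6, 127 and 84.9 CPM, against 95.3 and 114 CPM, and its partner Casc3 at 8.71, 2.33 and 5.84 CPM, against 3.60 and 16.5 CPM. Clns1a, which chaperones Sm proteins, was at 66.9, 49.5 and 52.0 CPM, against 43.2 and 55.4 CPM.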

How the data were processed

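Per the labels' protocols, RNA of sorted hepatic iNKT cells was made into 3′ mRNA libraries with a QuantSeq kit for Ion Torrent. The authors deposited 1 table of raw counts per library, whole numbers per Ensembl gene ID. Per the submitters' processing notes the build was mm10, and HISAT2, Bowtie2, DESeq2, edgeR and limma are among the named tools, without roles. The counting program, annotation and strand setting are not given in the sources used here, so reads of overlapping genes cannot be told apart. Symbols, types and positions came from GENCODE M21 by gene ID. CPM was computed from each table's total. Genes were kept with filterByExpr, scaled with TMM and tested with edgeR 4.0.16 in R 4.3.3 (quasi-likelihood F test, HCC against healthy, Benjamini-Hochberg over 8468 genes, threshold 0.05), and SE is the log2 fold change over the root of F. The steps were tested on simulated data with a dispersion of 0.05, below the common dispersion of 0.29 estimated in these libraries. That test therefore does not show what could be detected here. Alternatives used DESeq2 1.42.0 and limma 3.58.1. Values in every library were set to be given for the 2 members with the highest mean CPM and the up to 3 with the smallest unadjusted p in each family, for any member at a mean of at least 20 CPM without overlap of the groups, and for the gene with the smallest p and the one with the highest mean of each other list. A gene that this rule names is not reported here. Further members named were chosen after their values were seen. The members and lists were chosen with earlier results of these data known. Total counts of 1718452 to 2224356 set the precision.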

Additional observations from a re-analysis of the deposited data

How the results depend on the processing

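In every one of the 14 alternatives 0 members were called in either direction, with smallest adjusted p values among members of 0.0828 (without healthy 2) to 1. Over all genes, 29 were called higher and 24 lower with no filter on low counts, 8 higher with DESeq2 and 3 higher with the replicate number as a block. Leaving out single libraries gave 0 to 102 genes higher and 0 to 94 lower, with all calls made without healthy 2, where 1 gene of the other splicing lists was called higher and 1 lower (Prmt5, adjusted p = 0.0442), so that their ranges were 0 to 1. That fit assumes the lone healthy 1 to vary like the HCC libraries. The replicate block (paired by number) moved the Snrp median log2 fold change to 0.10. Whether the numbers pair the libraries could not be settled. The deviations of same-numbered ones from their group means correlated at -3.57e-05 and 0.125. With only 2 healthy libraries these deviations mirror each other, so the correlations cannot decide it. Members above the healthy libraries numbered 13 to 35 of 50 with 1 library left out (10 with all), beside 17.7% to 45.7% of all tested genes, and members below 2 to 13 (2 with all), beside 9.81% to 23.3%. With HCC 2 and 3 summed 17 (34.0%) lay above, beside 20.7%. With 1 library left out the log2 ratios of summed CPM ran from -0.21 to 0.50 (Snrp), -0.28 to 0.52 (Srsf), 0.11 to 0.74 (Hnrnp), 0.068 to 0.70 (Sf3a) and 0.044 to 0.65 (Sf3b), the ends being set by healthy 1 and healthy 2. With TMM scaling the Snrp and Srsf ratios were -0.052 and -0.079, against 0.10 and 0.064 from library totals. Those of Hnrnp, Sf3a and Sf3b were 0.23, 0.13 and 0.15, against 0.39, 0.35 and 0.32. Medians of log2 fold changes ran from -0.16 to 0.33 (Snrp), -0.080 to 0.64 (Srsf), 0.16 to 0.41 (Hnrnp) and 0.039 to 0.60 (Sf3b), and that of Hnrnp was 0.40 with library totals. Adding the rows that share sequence with members was chosen after seeing the data. It gave log2 ratios of summed CPM of -0.024 for Srsf and 0.43 for Hnrnp, against 0.064 and 0.39 without them.

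Of 516 refitted log2 fold changes of named genes 32 changed sign. With library totals they were 0.0072 (Snrpe), 0.034 (Snrpg), 0.066 (Sf3a1), 0.18 (Sf3b2) and 0.075 (Zmat2). With the replicate block they were 0.10 (Snrpe), 0.42 (Snrpg), 0.0062 (Sf3b2) and 0.017 (Zmat2). Snrpg was at 0.24 with limma-voom and at 0.030 with HCC 2 and 3 summed, Sf3b2 at 0.034 with no filter, and Clns1a at -0.040 with protein-coding rows only. With 1 library left out the ranges were -0.57 to 0.57 (Snrpe), -0.74 to 1.33 (Snrpg), -0.066 to 0.27 (Srsf1), -0.080 to 2.21 (Srsf6), -0.12 to 0.61 (Hnrnpk), -0.90 to 1.09 (Sf3a1), -0.20 to 0.24 (Sf3b2), -0.23 to 0.80 (Sf3b6), -0.21 to 0.030 (Zmat2), -1.54 to 0.38 (Casc3), -1.996 to 0.54 (Prmt5) and -0.13 to 0.15 (Clns1a). The cause was not tested.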
